A study of Mus musculus with 4 samples.

Results

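Peaks that lay between protein-coding genes but close to a gene start were taken from a list of chromatin regions profiled for closeness to PML bodies in mouse embryonic stem cells. A peak was counted as such a near-start intergenic peak when it was on an autosome, when its midpoint was outside the body of every protein-coding gene of the GENCODE M21 annotation, and when that midpoint was more than 1 kb but at most 10 kb from the nearest protein-coding 5' end. The rule uses position only, with 1 start per gene, and it found 2216 of the 26496 listed peaks (8.36%, exact Clopper-Pearson 95% interval 8.03 to 8.70%), which were 23.5% of the 9410 autosomal peaks between genes. Just inside the 1 kb limit was a peak of 169 bp at 1003 bp from Tmtc2, and just outside it a peak of 163 bp at 999 bp from Eomes. Just inside the 10 kb limit was a peak of 437 bp at 9994 bp from Ubtf, and just outside it a peak of 296 bp at 10002 bp from C130026I21Rik.

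All samples were E14 embryonic stem cells, an established mouse line, that carry an APEX-PML knock-in and were grown with leukemia inhibitory factor, CHIR99021 (a GSK3 inhibitor) and PD0325901 (a MEK inhibitor). In ALaP-seq the peroxidase APEX, here joined to PML, attaches biotin to nearby chromatin when hydrogen peroxide is given, and the labelled DNA is collected and sequenced. There were 2 samples with hydrogen peroxide (H2O2+) and 2 negative controls in which it was left out (H2O2-). The deposited list merges the replicates and gives only a chromosome, a start and an end for each peak, with no height, score or value per sample. No comparison of H2O2+ with H2O2- samples and no spread between replicates can therefore be given, the depth of the samples is unknown, and closeness to PML bodies was not tested for any single peak. The intervals below treat peaks or genes as independent units, which neighbouring peaks are not, and cover counting error only.

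PML bodies are round structures of the nucleus built on the PML protein, which is modified by SUMO and gathers partners such as Sp100 and Daxx, and they are known to lie beside active chromatin. DNA between genes near a start holds upstream regulatory sequence: enhancers read by pluripotency factors, CpG islands, insulator sites bound by CTCF, and genes for noncoding RNA that a map of protein-coding genes leaves out. In embryonic stem cells the factors Pou5f1 (Oct4), Sox2, Klf and Esrrb family members and Nanog bind such enhancers, many of them beside their own genes. Transfer RNA (tRNA) genes are transcribed by RNA polymerase III from promoter elements inside the gene, the A box and the B box.

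The sequences below are examples picked for the features they show, and do not tell how common these features are. All are on the plus strand of GRCm38 and read from the RefSeq assembly. The first 4 show peaks beside core pluripotency genes, and capitals mark the words searched for: the octamer ATGCAAAT of Oct4, the SOX word CATTGTT, and the KLF word GGGNGTGG, on either strand. They are the central 300 bp of the Utf1 peak 6468 bp downstream of the start (chr7:139950108-139950407), of the Gbx2 peak 4921 bp upstream (chr1:89935951-89936250) and of the widest Pou5f1 peak, 2026 bp upstream (chr17:35503843-35504142), and the whole of a Dppa3 peak of 292 bp, 1719 bp upstream (chr6:122624546-122624837). The Utf1, Gbx2 and Dppa3 peaks were picked among those beside core pluripotency genes with the most octamer, SOX, KLF or ESRRB words. Only 10 of 32 peaks beside such genes held any of these words. The Pou5f1 peak was picked after its values were seen. The centres of the widest Nanog and Sox2 peaks, copied along with it and not printed, held 0 of these words. The next shows a CpG-rich peak, 1496 bp upstream of Dusp6 (chr10:99261586-99261885), with its 39 CpG dinucleotides in capitals, and the one after it a peak upstream of Mybl2 (chr2:163051957-163052256) with the CTCF word AGGGGGC in capitals, here on the minus strand. The last 2 show whole peaks upstream of Aurkb, picked after their values were seen, that lie on genes for serine and threonine tRNA (chr11:69037415-69037565 and chr11:69037796-69037926), with the B box word GGTTCGANNCC in capitals.
Utf1: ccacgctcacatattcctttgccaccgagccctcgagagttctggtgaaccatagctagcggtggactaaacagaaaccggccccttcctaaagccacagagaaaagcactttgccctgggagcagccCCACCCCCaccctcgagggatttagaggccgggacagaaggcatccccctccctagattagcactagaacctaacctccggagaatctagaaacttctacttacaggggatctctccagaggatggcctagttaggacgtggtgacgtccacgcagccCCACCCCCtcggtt
Gbx2: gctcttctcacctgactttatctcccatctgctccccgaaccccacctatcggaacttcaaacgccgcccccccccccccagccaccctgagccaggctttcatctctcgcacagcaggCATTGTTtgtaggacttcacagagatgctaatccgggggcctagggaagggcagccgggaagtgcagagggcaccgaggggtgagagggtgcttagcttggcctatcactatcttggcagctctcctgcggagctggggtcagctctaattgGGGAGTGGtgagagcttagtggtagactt
Pou5f1: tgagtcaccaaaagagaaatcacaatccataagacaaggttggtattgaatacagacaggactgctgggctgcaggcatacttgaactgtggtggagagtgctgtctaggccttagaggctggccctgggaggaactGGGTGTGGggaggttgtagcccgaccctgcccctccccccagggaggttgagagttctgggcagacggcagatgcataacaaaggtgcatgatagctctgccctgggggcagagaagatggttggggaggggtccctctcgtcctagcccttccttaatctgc
Dppa3: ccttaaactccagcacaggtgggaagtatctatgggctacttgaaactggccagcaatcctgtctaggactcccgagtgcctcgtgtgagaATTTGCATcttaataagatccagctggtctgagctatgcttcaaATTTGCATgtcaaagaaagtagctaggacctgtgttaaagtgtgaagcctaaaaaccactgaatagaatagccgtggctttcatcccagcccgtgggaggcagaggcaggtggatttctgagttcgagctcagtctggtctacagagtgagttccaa
Dusp6: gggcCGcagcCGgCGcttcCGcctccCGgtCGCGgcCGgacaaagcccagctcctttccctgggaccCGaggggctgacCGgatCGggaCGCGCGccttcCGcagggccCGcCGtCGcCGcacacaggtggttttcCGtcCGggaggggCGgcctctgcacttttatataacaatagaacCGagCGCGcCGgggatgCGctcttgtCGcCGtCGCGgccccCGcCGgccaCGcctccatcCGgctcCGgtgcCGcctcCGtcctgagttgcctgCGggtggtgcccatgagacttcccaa
Mybl2: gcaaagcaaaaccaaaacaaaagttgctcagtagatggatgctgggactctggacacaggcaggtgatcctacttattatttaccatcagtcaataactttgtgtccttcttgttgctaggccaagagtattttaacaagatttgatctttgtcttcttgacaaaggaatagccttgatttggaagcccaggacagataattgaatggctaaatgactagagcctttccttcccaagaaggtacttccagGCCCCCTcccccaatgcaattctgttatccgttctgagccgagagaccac
n-TSaga4: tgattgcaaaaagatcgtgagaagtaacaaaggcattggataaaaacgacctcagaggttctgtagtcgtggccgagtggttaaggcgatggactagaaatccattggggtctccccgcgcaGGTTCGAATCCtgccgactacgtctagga
n-TTagt8: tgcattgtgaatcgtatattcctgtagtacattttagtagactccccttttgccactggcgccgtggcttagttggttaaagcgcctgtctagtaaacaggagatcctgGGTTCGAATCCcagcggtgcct

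The near-start intergenic peaks were denser than peaks deeper between genes, and they stayed dense out to 10 kb. Reads had been mapped to a repeat-masked genome, so densities are given per Mb of unmasked sequence that meets the same position rule. All peaks were counted, also those in masked sequence. Of near-start intergenic peaks 15.0% were masked over at least 50% of their length. It was 21.9% between genes beyond 10 kb and 6.98% in gene bodies at 1 to 10 kb. Per Mb of all sequence, masked or not, these classes held 16.2, 5.75 and 17.6 peaks in the same order. Near-start intergenic sequence held 26.1 peaks per unmasked Mb (exact Poisson 95% interval 25.0 to 27.2, 84.9 unmasked Mb), against 9.31 (9.09 to 9.53) between genes beyond 10 kb. Inside gene bodies the same distance of 1 to 10 kb held 23.8 peaks per unmasked Mb, close to the near-start intergenic value, while promoters, meaning midpoints within 1 kb of a start, held 263. Most of the near-start intergenic peaks were upstream of the nearest gene (1856, 83.8%) and 360 were downstream, past the gene's end. Most of the sequence that meets the rule is upstream, and per unmasked Mb downstream sequence held 30.2 peaks (27.1 to 33.4) and upstream sequence 25.4. Upstream, the first kilobase beyond the promoter, 1 to 2 kb from the start, held 349 peaks at 32.2 per unmasked Mb (28.9 to 35.7), the next held 24.7, and each kilobase from there to 10 kb held between 22.9 and 25.4. Beyond 2 kb the values of neighbouring kilobases lay within each other's intervals, and at 9 to 10 kb the density was 24.4, against 9.31 farther between genes.

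**Figure D1:**
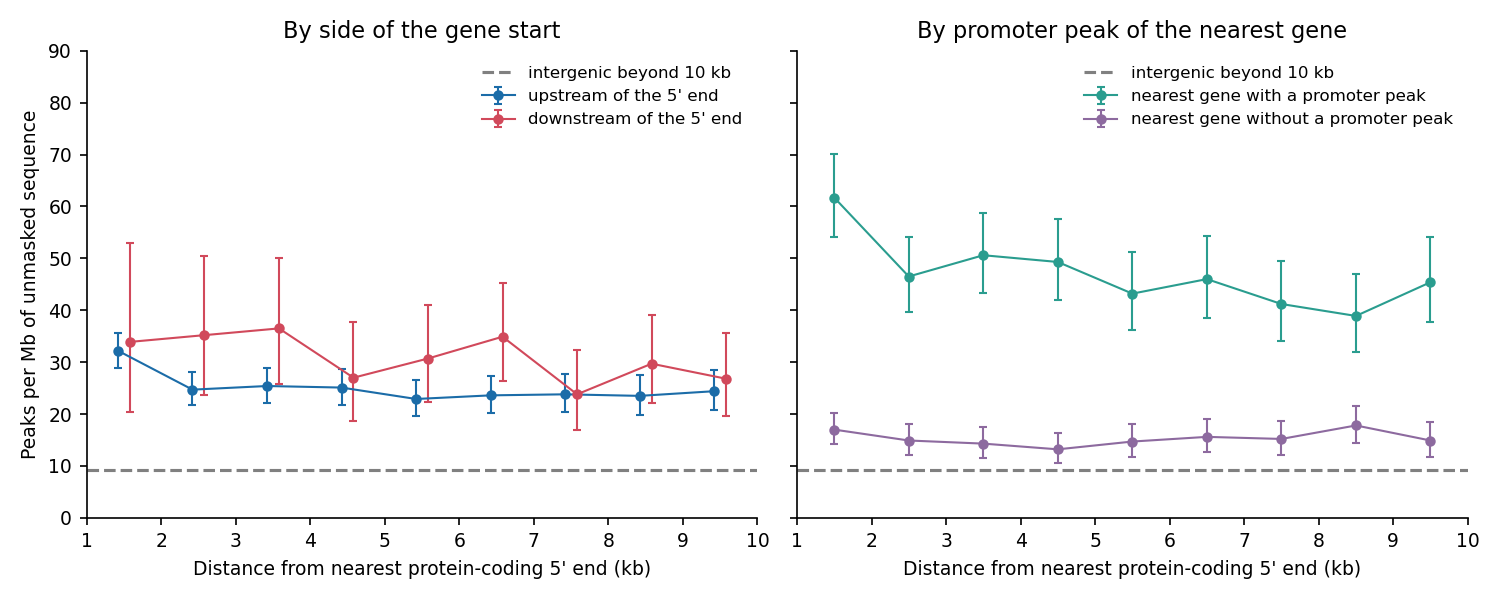
Near-start intergenic peaks per Mb of unmasked sequence (y axis) in each kilobase from the nearest protein-coding 5' end (x axis), on the left for sequence upstream and downstream of the gene start, on the right for sequence whose nearest gene has or lacks a promoter peak. Points are densities, bars exact Poisson 95% intervals, and the dashed line is the density between genes beyond 10 kb, 9.31 per unmasked Mb. The upstream curve starts at 32.2 and then runs between 22.9 and 25.4, and the curve for genes with a promoter peak lies above the other at every distance.

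Near-start intergenic peaks went with peaks at the promoter of the same gene. A gene was said to have a promoter peak when a peak that is not itself near-start intergenic overlapped, by 1 bp or more, the stretch from 1 kb before to 1 kb after its start, which held for 8358 of 20807 autosomal protein-coding genes (40.2%). The nearest gene had a promoter peak for 1351 near-start intergenic peaks (61.0%, 58.9 to 63.0%), against 51.1% of the 7194 peaks between genes beyond 10 kb. Near genes with a promoter peak the density was 47.6 per unmasked Mb (45.1 to 50.2), and near genes without one it was 15.3 (14.3 to 16.3). Among genes with a promoter peak it reached 61.7 at 1 to 2 kb and lay between 38.9 and 50.6 at every kilobase beyond, while near genes without a promoter peak it lay between 13.2 and 17.8 throughout. The CpG content of the promoter went with the density in opposite directions in these groups. Genes with a promoter peak and a promoter CpG observed/expected ratio below the median of all genes had 71.0 near-start intergenic peaks per unmasked Mb (63.6 to 79.1), and those at or above the median 43.0 (40.4 to 45.7). Without a promoter peak the order was the other way, 13.6 (12.5 to 14.8) below the median and 19.7 (17.6 to 22.1) at or above it. When peaks under the median width were left out both here and at promoters, which by itself leaves fewer genes with a promoter peak, the share was 46.4%, and the comparison shares were not recomputed.

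Of the 20807 genes, 1594 (7.66%, 7.30 to 8.03%) were the nearest gene of at least 1 near-start intergenic peak, 390 of them of 2 or more. The 53 genes with 4 or more held 259 peaks, 11.7% of the total. Some of the fullest genes lie in recently duplicated sequence. C130026I21Rik on chromosome 1 had 10 peaks, of which 6 had a near-identical copy of their central 150 bp elsewhere in the genome (95% identity over 80% of it). Zfp991, a zinc finger gene of chromosome 4, had 8 with 6 copied, Tcstv1 had 6 with 5 copied, and Tcstv3 had 8 with 3 copied. Reads from such copies cannot be assigned to 1 place with certainty, so their counts are uncertain. Others among the fullest genes had no copied peak. Mllt6, which encodes a chromatin reader fused to MLL in leukaemia, had 8 peaks between 1254 and 9893 bp upstream, of 114 to 1050 bp. Ier2, an immediate early gene, had 7, of which 5 were downstream of the gene at 1675 to 8006 bp and 2 upstream. Mcl1, an anti-apoptotic BCL2 family gene, had 6 at 4988 to 7931 bp, 4 of them upstream and 2 downstream. Sp8, a zinc finger developmental factor, had 6 although it had no promoter peak, the widest of them a CpG-rich peak of 728 bp at 9462 bp upstream.

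Core pluripotency genes were the list with the largest share of genes with a near-start intergenic peak, together with the list of the LIF and STAT3 pathway. The list was written with earlier results of these data known, so it describes where the peaks are and carries no test. Of 24 core pluripotency genes on autosomes, 14 had at least 1 (58.3%, against 7.66% of all genes), with 32 peaks in all, or 197 per unmasked Mb (135 to 279) against 26.1 for all genes and 47.6 for genes with a promoter peak. Of the 24 genes, 19 had a promoter peak (79.2%). None of the 32 peaks had a near-identical copy.

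Pou5f1, which encodes Oct4, had 3 near-start intergenic peaks, all upstream, at 3577 bp (295 bp wide), 2026 bp (471 bp wide) and 1440 bp (134 bp wide). Its distal and proximal enhancers are known to lie in this upstream stretch, the distal one being the element used in embryonic stem cells. Sox2, which encodes the HMG-box partner of Oct4, had 3 peaks upstream, at 9519, 7831 and 4005 bp with widths of 138, 333 and 206 bp, and 1 downstream at 3591 bp with a width of 394 bp. Enhancers named SRR1 and SRR2 are known on either side of this gene. Nanog, a homeobox factor of the naive state, had a wide peak of 1041 bp at 4634 bp upstream and narrower ones of 104 and 233 bp at 8212 and 8622 bp downstream. No enhancer annotation was used here, and whether these peaks coincide with the named elements was not tested.

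Utf1, a chromatin-associated coactivator under Oct4 and Sox2, had both of its peaks downstream, one of 783 bp at 2013 bp and one of 1098 bp at 6468 bp. The farther one, whose centre is printed above with 2 KLF words, lay 259 bp from another RefSeq transcript start and was among the 20 widest near-start intergenic peaks. Gbx2, a homeobox target of LIF signalling, had 4, at 9374, 4921 and 3703 bp upstream and 3793 bp downstream, the widest of 490 bp. Dppa5a, which encodes a small RNA-binding protein of the early embryo, had 4, with 2 on each side within 3419 bp. Klf2 had 1 upstream of 464 bp and 1 downstream of 190 bp, Tfcp2l1 had 2 and Tbx3 had 2 upstream, all within 2675 bp on that side. These 3 encode transcription factors of the naive network. Dppa3 was the only one of the 14 genes without a promoter peak, and had 1 peak of 292 bp at 1719 bp upstream, with 2 octamer words, and 1 of 210 bp at 7123 bp downstream. Tdgf1, the Nodal co-receptor Cripto, had a single upstream peak of 1328 bp, and Rif1, Sall4 and Prdm14 had 1 each, of 336, 135 and 131 bp. The 10 listed genes without one included Esrrb, Klf4, Klf5, Nr5a2, Zfp42 and Lin28a. For Fgf4 the sequence that meets the rule was short, 1.93 kb.

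**Figure D2:**
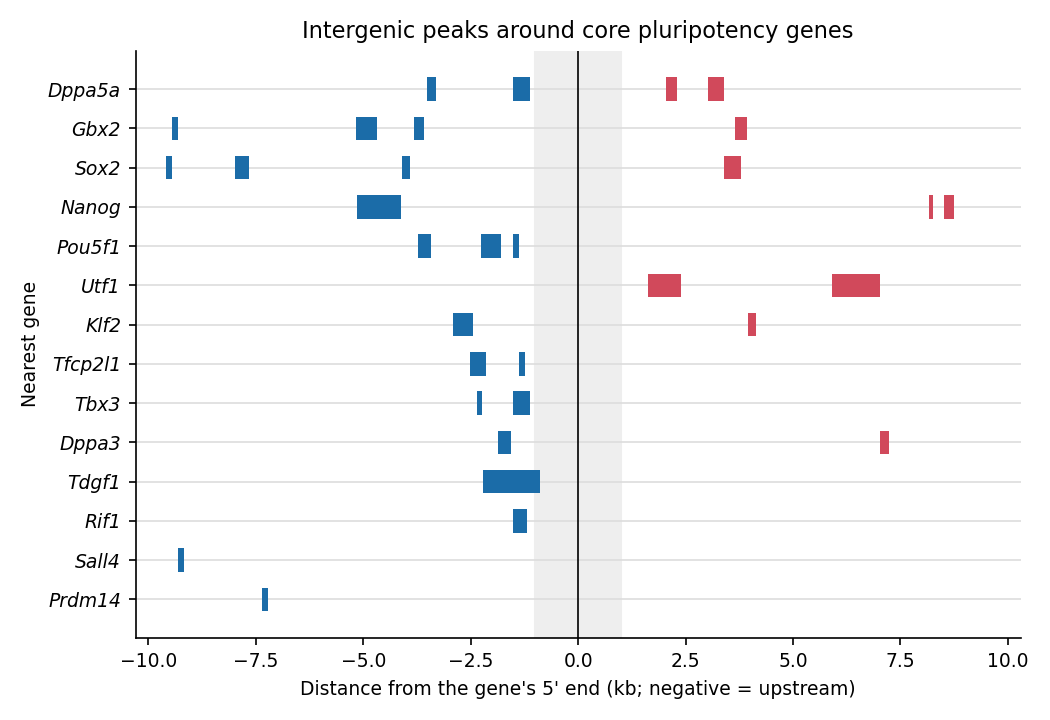
Near-start intergenic peaks around the 14 core pluripotency genes that have one, drawn to scale by distance from the gene's 5' end in kb (x axis, negative upstream), with 1 row per gene (y axis), upstream peaks in blue and downstream peaks in red. The grey band is the promoter window of 1 kb either side that the rule leaves out. Pou5f1 has 3 upstream peaks, Sox2 has peaks on both sides, and both peaks of Utf1 are downstream.

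Genes of the signalling pathways that the culture medium acts on were also often the nearest gene. For comparison, 7.66% of all genes had a near-start intergenic peak, at 26.1 per unmasked Mb. Among genes with a promoter peak it was 11.1%, at 47.6 per unmasked Mb. Promoter peaks were at 62.5% (WNT) to 81.2% (FGF and ERK) of the genes of the signalling lists below, against 40.2% of all genes. In the LIF and STAT3 list 7 of 12 genes had a near-start intergenic peak, 176 per unmasked Mb (96.1 to 295). Socs3, the feedback inhibitor of this pathway, had 5, of 111 to 688 bp, 3 of them upstream and 2 downstream. In the FGF and ERK list, the pathway that PD0325901 inhibits, 9 of 16 genes had one (120 per unmasked Mb). They included Ccnd1 (cyclin D1) with 4 in a single run of chromosome 7 from 144940996 to 144943639, and the feedback inhibitors Spred2 and Spry2 with 2 each and Dusp6 with 1. In the WNT list, the pathway that CHIR99021 activates, 7 of 16 genes had one (118 per unmasked Mb), among them Lef1 with 4 and Myc with 3, at 6296 and 2002 bp upstream and 9677 bp downstream. The BMP and Id list had 5 of 10, with 3 peaks at Id1 and 2 at Id3, both encoding inhibitors of basic helix-loop-helix factors. The Nodal list had 7 of 15, with 2 peaks of 1368 bp in all at Nodal itself. It shares Tdgf1 with the core pluripotency list.

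Other lists ranged down to the level of all genes and below it. Replication-dependent histone genes had near-start intergenic peaks at 19 of 67 genes and cytosolic ribosomal protein genes at 19 of 88, with 130 and 70.0 per unmasked Mb. Promoter peaks were at 85.1% and 83.0% of these genes. Some of the peaks assigned to histone genes, such as both at Hist1h2bj, lay within 1 kb of a tRNA start. Heat shock genes, all with a promoter peak, had near-start intergenic peaks at 5 of 18, with 5 at Hspa8 and 4 at Hspa1b. Both encode HSP70 family chaperones. The 4 peaks assigned to Hspa1b lay 6038 to 8675 bp downstream, each within 1 kb of a snoRNA or long noncoding RNA start. Developmental factors had near-start intergenic peaks at 12 of 40 and Hox genes at 7 of 39. Genes of the 2-cell-like state had them at 4 of 15, all of the Tcstv and Tdpoz families. Zinc finger genes named Zfp had them at 36 of 385 (9.35%). Mitochondrial ribosomal protein genes had them at 3 of 78 (3.85%), a list in which 88.5% of genes had a promoter peak. In that list the median sequence per gene that met the rule was only 2.37 kb, less than the median of all genes. Its density was 20.7 per unmasked Mb (5.63 to 52.9), an interval that includes the 26.1 of all genes. Liver, muscle, neuron and blood lists had 1 of 19, 1 of 20, 2 of 15 and 2 of 18 genes, and olfactory receptor genes 31 of 1128 (2.75%, 1.87 to 3.88%). Promoter peaks were at 0%, 15.0%, 33.3% and 11.1% of the liver, muscle, neuron and blood genes. They were at 0.177% of the olfactory receptor genes, against 40.2% of all genes. PML body components had near-start intergenic peaks at 3 of 22 genes (13.6%, 2.91 to 34.9%), an interval that includes the background of 7.66%. Among them were Morc3, an ATPase that forms nuclear bodies with PML, with 1 peak of 650 bp at 5677 bp upstream, and Sumo3, which encodes a SUMO protein, with 1 of 281 bp. Pml itself had none, and only 0.689 kb near it met the rule.

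**Figure D3:**
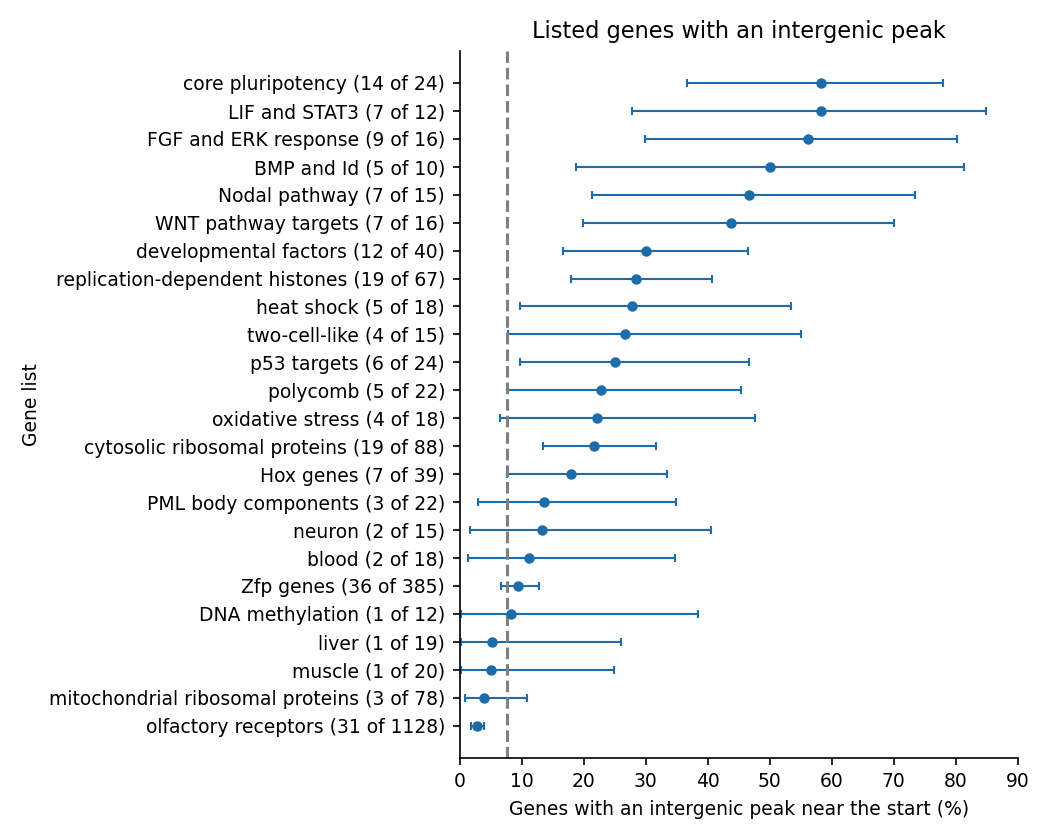
Share of the genes of each list that are the nearest gene of at least 1 near-start intergenic peak (x axis, %, exact Clopper-Pearson 95% intervals), with the lists down the y axis and their counts in brackets. The dashed line is the share over all autosomal protein-coding genes, 7.66%. Core pluripotency and signalling lists lie to the right of the line, and olfactory receptors at 2.75% lie to its left.

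Starts of tRNA genes accounted for a set of narrow near-start intergenic peaks. This was looked for after the RefSeq starts near the peaks had been seen. Of the 2216 peaks, 44 (1.99%, 1.45 to 2.66%) had their midpoint within 200 bp of a tRNA start and 59 within 1 kb. Of the 300 bp windows that tile near-start intergenic sequence, those with at least 50% unmasked bases (called unmasked windows here) served as background, and 0.0391% of them were within 200 bp of a tRNA start. The 59 peaks lay at 54 tRNA genes for 17 amino acids, at a median of 54.0 bp from the start, and were 91 to 702 bp wide with a median of 193 bp. None was masked over 50% or more of its length. None had a near-identical copy by the criterion above, but the match it needs is longer than a tRNA gene without its flanks. The criterion therefore cannot tell whether the tRNA genes themselves have identical copies elsewhere, and whether these peaks are uniquely placed was not tested. They were grouped in the genome, with 21 on chromosome 13 between 21169984 and 23526592, where tRNA and histone genes are clustered and which held 33 near-start intergenic peaks in all, and 17 on chromosome 11. All 6 near-start intergenic peaks of Aurkb, the Aurora B kinase gene, were within 1 kb of a tRNA start. Counted from the tRNA genes, 49 of the 95 that lay in near-start intergenic sequence were overlapped by a peak (51.6%, 41.1 to 62.0%), against 107 of 226 between genes beyond 10 kb (47.3%, 40.7 to 54.1%). The B box word was searched in the central 300 bp of a peak, or in the whole peak where shorter, and in whole 300 bp windows. It was in 30 of the 44 peaks within 200 bp of a tRNA start, in 0 of the 2157 peaks farther than 1 kb from one (at most 0.171%), and in 0.0949% of unmasked windows.

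Peaks at small nuclear and nucleolar RNA genes were fewer and wider. Of 90 snRNA genes in near-start intergenic sequence, 8 were overlapped by a peak (8.89%, 3.92 to 16.8%), and of 89 snoRNA genes 5 (5.62%, 1.85 to 12.6%). The 19 near-start intergenic peaks within 1 kb of the start of a snRNA, snoRNA or scaRNA gene in GENCODE had a median width of 323 bp, against 220 bp for peaks with no noncoding start within 1 kb. They made up 6 of the 25 near-start intergenic peaks of 1 kb or wider. The second widest of all, 2405 bp near Sirt4, had its midpoint 4 bp from the start of a U4 spliceosomal RNA gene. The midpoint of one of 2116 bp near Hspa1b was 454 bp from the Snord52 start, and of one of 1348 bp near Eapp 470 bp from a U1 start. For one of 1323 bp near Tmem107 it was 434 bp from Snord118 (U8), and for one of 1275 bp near Kif2c 423 bp from a U5 start. For one of 1319 bp near Arl4d it was 754 bp from Rnu2-10 (U2), whose start was outside the peak. Another of 1512 bp near Taf12 lay 419 bp from Rnu11 (U11), which the RefSeq annotation gives. The 7SK gene Rn7sk had 2, of 365 and 268 bp, assigned to Gsta4 as the nearest protein-coding gene. These RNAs belong to splicing, to the modification and processing of ribosomal RNA and, for 7SK, to the control of transcription elongation. The widest near-start intergenic peak, 3192 bp near Tcstv3, and those of 2070, 1388 and 1387 bp near Gm21836 were not at such genes.

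**Figure D4:**
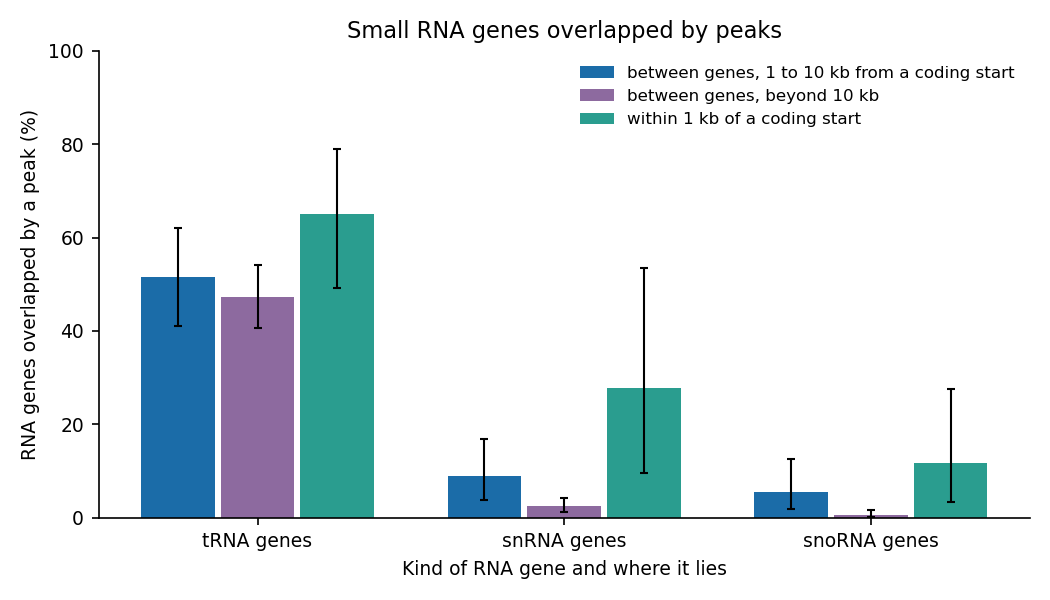
Share of RefSeq tRNA, snRNA and snoRNA genes overlapped by at least 1 bp of any listed peak (y axis, %, exact Clopper-Pearson 95% intervals), for genes in near-start intergenic sequence, between genes beyond 10 kb, and within 1 kb of a protein-coding start (x axis and colours). For tRNA genes 51.6% and 47.3% were overlapped in the intergenic places, and for snRNA genes 8.89% and 2.45%.

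Other unlisted starts were near some of the peaks. Of the 2216, 185 (8.35%, 7.23 to 9.58%) had a midpoint within 1 kb of the start of a GENCODE gene that is not protein coding, against 4.24% of the unmasked sequence that meets the rule. The share was 8.72% for peaks between genes beyond 10 kb and 14.8% for promoter peaks. Of the 185, 90 were at long noncoding RNAs. Counting also the starts of RefSeq transcripts, which include other starts of protein-coding genes, 366 (16.5%) were within 1 kb of an annotated start. The other 1850 peaks had none within 1 kb.

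The near-start intergenic peaks were on the whole CpG-poor. Their median GC content was 51.7%, against 50.4% between genes beyond 10 kb, 64.9% at promoters and 44.0% in unmasked windows of near-start intergenic sequence. A peak was called CpG-rich when its GC content was at least 50% and its CpG observed/expected ratio at least 0.6, over at least 200 bp. That held for 284 near-start intergenic peaks (12.8%, 11.5 to 14.3%), against 7.45% between genes beyond 10 kb, 28.6% in gene bodies at 1 to 10 kb, 79.5% at promoters and 0.613% of unmasked windows. Of the 284, 113 (39.8%) were within 1 kb of a RefSeq or noncoding start and 171 were not, and the nearest gene had a promoter peak for 57.7%, against 61.4% for the other near-start intergenic peaks. The median width was 222 bp in near-start intergenic peaks, 215 bp between genes beyond 10 kb and 251 bp at promoters. Another peak lay within 1 kb of 687 near-start intergenic peaks (31.0%), and for 552 of them it was another of the same kind. The longest run held 12 peaks near Ppp2r3d and Gm21836 on chromosome 9 between 124478779 and 124492005, 2 of them with copies.

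A set of 15 transcription factor words was searched on both strands in the 300 bp centred on the midpoint of each peak, flanks included where the peak is narrower, and in all 300 bp windows of near-start intergenic sequence. Because peaks are richer in GC than the windows, shares are also given for the 1108 peaks and the unmasked windows with a GC content of 47.1 to 56.8%, the quartiles of the near-start intergenic peaks. This restriction was added after the data had been seen. The GC content was taken over the peak, widened to at least 200 bp, and over the 300 bp of each window. The restriction is therefore only an approximate match for GC. The ESRRB word TCAAGGTCA was in 2.57% of near-start intergenic peaks (1.95 to 3.32%), 2.56% of those beyond 10 kb and 0.502% of promoter peaks, and within the GC range in 3.61% of peaks (2.59 to 4.88%) and 0.937% of windows. The octamer was in 4.02% (3.24 to 4.92%), 5.50% and 1.36%, and within the GC range in 3.70% of peaks and 1.04% of windows. The KLF word was in 21.3%, 19.9% and 22.8%, and within the GC range in 23.1% of peaks and 12.9% of windows. The SOX word was in 5.73% of near-start intergenic peaks against 5.52% of unmasked windows, but within the GC range in 6.05% (4.72 to 7.62%) of peaks and 3.44% of windows. At least 1 of these 4 words was in 674 peaks (30.4%), and in 10 of the 32 peaks at core pluripotency genes (31.2%), a share close to that of all near-start intergenic peaks, although 32 peaks give only a wide interval with a lower bound of 16.1%.

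For some words that were common at promoters, near-start intergenic peaks lay between the promoter peaks and those beyond 10 kb. The SP word GGGCGGG was in 13.3% of near-start intergenic peaks (11.9 to 14.8%), 8.97% of those beyond 10 kb and 47.5% of promoter peaks, and it followed CpG content, with 42.3% of CpG-rich near-start intergenic peaks and 9.06% of the others. The ETS word CCGGAAG was in 5.23% (4.34 to 6.25%), 4.61% (4.14 to 5.13%) and 19.1%. The NRF1 word GCGCATGCG was in 0.406% (9 peaks, 0.186 to 0.770%), 0.320% (0.203 to 0.479%) and 3.60%. For ETS and NRF1 the intervals of both intergenic classes overlapped, so the order of those classes is not settled. The CTCF word was in 9.66%, 7.06% and 17.4%, and within the GC range in 7.76% (6.25 to 9.50%) of peaks and 5.32% of windows. The E-box CACGTG was in 6.32%, 4.38% and 9.80%. The word TGANTCA of AP-1, a factor pair of growth and stress responses, was in 8.48% of near-start intergenic peaks and 9.86% of unmasked windows. The TEAD word GGAATG was in 20.4%, against 16.7% of these windows. The PRDM14 word GGTCTCTAA was in 12 near-start intergenic peaks (0.542%, 0.280 to 0.944%), in 0.167% (0.0862 to 0.291%) of those beyond 10 kb, in 0.152% of promoter peaks and in 0.246% of unmasked windows. The STAT word TTCCNGGAA, the cyclic AMP element TGACGTCA and the YY1 word AAGATGGCG were in 32, 11 and 5 near-start intergenic peaks. Words could overlap: 20 near-start intergenic peaks had a CTCF word and an SP word that shared bases, and 9 a KLF word and an SP word. A match is a short string that also occurs by composition and does not show that the factor binds there.

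**Figure D5:**
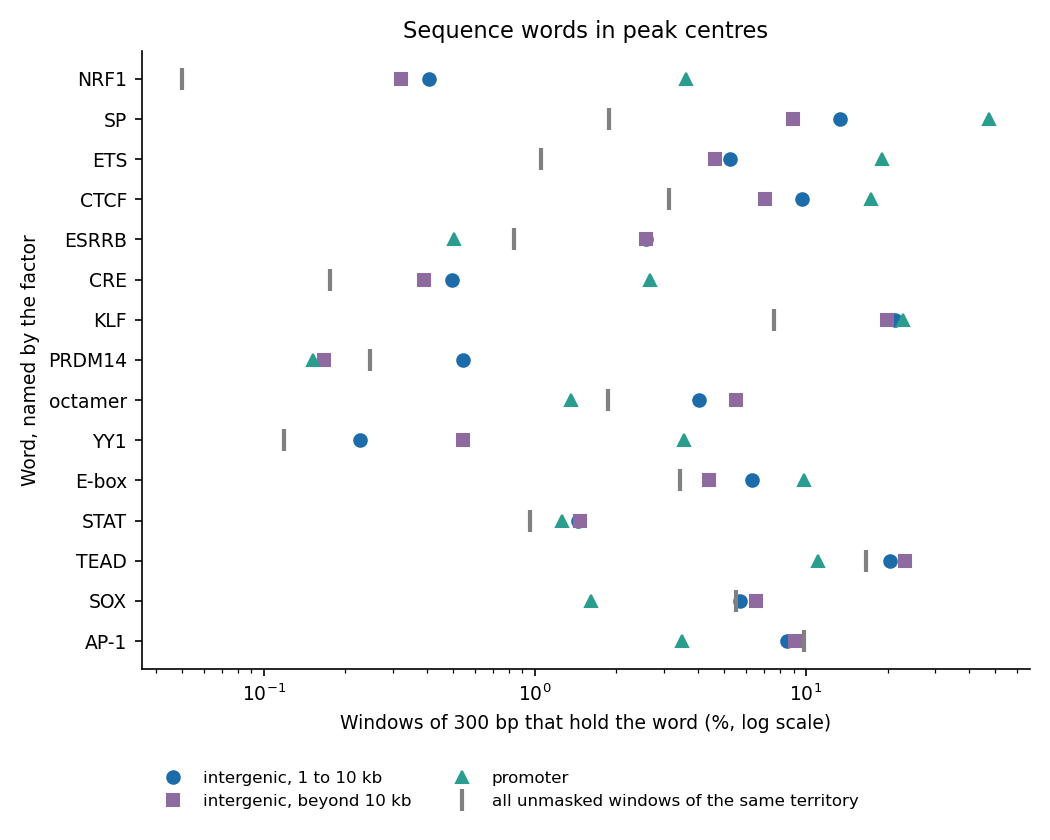
Share of 300 bp windows centred on peak midpoints that hold each of 15 words (x axis, %, log scale, words down the y axis) in near-start intergenic peaks, peaks between genes beyond 10 kb and promoter peaks, and in all unmasked windows of near-start intergenic sequence (grey bars). For the ESRRB word the intergenic classes lie together near 2.6% with promoters at 0.502%, while for the SP word promoters lie highest at 47.5%.

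Densities also varied along the genome. Chromosomes 13, 11, 9 and 4 held 37.0, 36.3, 35.1 and 34.1 near-start intergenic peaks per unmasked Mb, and chromosomes 14, 18 and 12 held 18.8, 19.1 and 19.8. On chromosome 13, 27 of 146 peaks had a near-identical copy and on chromosome 11 it was 3 of 223. Of all near-start intergenic peaks 162 (7.31%) had such a copy, against 12.7% between genes beyond 10 kb and 1.23% at promoters, and 332 (15.0%) were masked over at least 50% of their length.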

How the data were processed

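The authors deposited 1 list of merged peaks used here, whose columns hold a chromosome, a start and an end in bp (no other unit such as a score or a p-value), per the file itself. Per the series' design text and the submitters' processing notes, Trimmomatic was used for trimming, Bowtie2 2.3.5.1 for mapping to mm10 with its repeats masked, and bedtools for taking out blacklist and greylist regions. Masking can remove or thin peaks in repeats. How peaks were called and merged is not stated by any source used here, nor is it known whether the H2O2- controls entered the list. Signal tracks were not analysed here.

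Peaks were placed on GRCm38 (the assembly mm10 names) by their midpoint, with 1 start per gene of GENCODE M21, and small RNA genes came from RefSeq. Densities used the exact count of bases that meet the rule, without assembly gaps. Copies were sought with minimap2 2.31. Python 3.11.15, numpy 2.4.6, pandas 2.3.3 and scipy 1.17.1 were used. Placement was tested on 3000 simulated peaks, of which 0 were misplaced. No test of significance was run.

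The class of peaks, gene lists and words were chosen with earlier results of these data known. Named are the 10 genes with the most near-start intergenic peaks, genes of the 10 widest, core pluripotency and PML body genes with one, and up to 4 genes of each other list. The tRNA and small RNA genes, other snRNA neighbours, and the Pou5f1 and Aurkb sequences were chosen after their values were seen. Some items are not reported here.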

Additional observations from a re-analysis of the deposited data

How the results depend on the processing

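The analysis was repeated under 13 alternative settings, giving 85 values, of which 64 stayed within the interval of the reported value or, for counts, within 1.5 times of it. The number of near-start intergenic peaks was 1102 with only peaks at or above the median width of 223 bp, 1148 with an upper distance of 5 kb and 3721 with 20 kb, and the number of genes with one was 897 and 957 under the first 2 of these. The share whose nearest gene has a promoter peak was 46.4% with only wide peaks, 64.1% with 5 kb, 58.2% with 20 kb and 56.8% with a promoter window of 500 bp. The share with another peak within 1 kb was 21.3% with only wide peaks, 28.9% with 20 kb, 27.9% with a lower distance of 2 kb and 19.4% with peaks within 1 kb joined. The CpG-rich share was 6.18% with limits of 55% GC and 0.75 observed/expected, the share at noncoding starts 5.41% outside gene bodies of any type, and the octamer share 5.17% in wide peaks and 3.02% in the central 200 bp. Leaving out peaks within 1 kb of a RefSeq or noncoding start, chosen after seeing the data, gave 9.24% CpG-rich and 28.4% close to another peak, and by its construction 0% at noncoding starts and 0% at tRNA starts. Other moves also follow at least in part from the setting. Stricter CpG limits and a shorter window can only lower the CpG-rich and octamer shares. Joining peaks within 1 kb removes close neighbours of the same kind. Leaving out midpoints inside noncoding genes leaves out peaks just past a noncoding start. Leaving out narrow peaks or an upper distance of 5 kb can only lower the counts of peaks and genes, and one of 20 kb can only raise them. A promoter window of 500 bp can only lower the share whose nearest gene has a promoter peak. For the remaining values that moved, the cause was not tested. Apart from the setting that left out peaks near RefSeq or noncoding starts, the share at tRNA starts lay between 1.57% and 2.39%. No paired analysis was possible because the list holds no values per sample. With 1 merged list, the spread between replicates and the background in H2O2- samples are unknown.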
